A study of Mus musculus with 6 samples.

Results

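The hormone receptors of the mammary gland were followed here as 9 genes: the nuclear receptors Esr1, Esr2, Pgr, Vdr, Thra and Thrb, the cytokine receptors Prlr and Ghr, and Greb1, a co-factor and target of the estrogen receptor. They were chosen by name, and all probes matched to them were kept, which gave 17 probes for 9 genes out of 27235 probes for 20660 genes on the array. Of the 17 probes, 13 (for 8 genes) passed the filter on low signal and entered the test, and 4 did not: 2 of Esr1 and both of Thrb. Hybridization of RNA from 3 E18.5 fetal and 3 adult basal mammary samples to Agilent SurePrint G3 Mouse GE one-color microarrays gave the values, with 1 sample on each array. On such an array a brighter spot means that more labelled cRNA bound to the probe. The fetal cells came from E18.5 mice and were sorted for the phenotype CD31-CD45-Ter119-EpCAM++CD49f+. For the adult basal cells, from mice of 8–12 wk, the phenotype was CD31-CD45-Ter119-BP-1-EpCAM+CD49f+. All mice were C57Bl6J females without any genetic change or treatment named in the labels, and adult glands were dissociated overnight whereas fetal glands were digested only briefly. Each value describes a sorted population and not a cell, so that a lower signal from fewer cells that express a gene and one from less RNA in each cell cannot be told apart. The labels name the Low Input Quick Amp kit for the labelling of the RNA and the methods of the study its whole-transcript form. Nothing in the labels says whether animals were pooled for a sample.

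Steroid and thyroid hormones and vitamin D enter the cell and bind nuclear receptors, which then act on genes as transcription factors, whereas prolactin and growth hormone bind receptors in the cell membrane that signal through JAK2 and STAT5. In the adult gland, estrogen receptor alpha and the progesterone receptor are known from a subset of luminal cells, which pass the hormonal signal to their neighbours through secreted factors such as amphiregulin and RANKL. Prolactin acts on luminal cells to prepare the gland for milk production, the vitamin D receptor is known as a brake on ductal growth, and basal cells are mostly known as receptor-poor cells that surround the luminal layer.

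The labels were checked against marker genes. Of 11 basal and myoepithelial markers, 8 passed the Holm-adjusted test described below as higher in adult basal cells and none as higher in fetal cells. Among the 8 were the keratin gene Krt5 (log2 difference -3.90, fetal minus adult basal) and the contractile genes Acta2 (-4.07) and Myh11 (-8.63). The keratin gene Krt14 (-1.20) was not called and overlapped. It read 15.25, 13.39 and 15.46 in adult basal replicates 1 to 3, against 13.36 to 13.78 in fetal cells. Trp63, a transcription factor of basal cells, was at a log2 signal of 13.30 ± 0.11 in fetal against 13.38 ± 0.065 in adult basal cells (SD, n = 3 each). Lgr5, a gene of stem cells, went the other way without overlap, at 14.13 against 11.48, and its difference of 2.64 passed only with Benjamini-Hochberg adjustment (limma, adjusted p = 9.3e-05, Holm-adjusted p = 0.28). Of 11 luminal markers, 6 passed as higher in fetal cells and none as higher in adult basal cells, among them the tight junction gene Cldn3 (4.39), Epcam (1.88) and the surface antigen gene Cd24a (2.15). The keratin genes Krt8 (0.44) and Krt18 (0.58) were brighter on every fetal array without a call, whereas Krt7 (-1.29), Krt19 (-1.22) and the mucin gene Muc1 (-0.48) were dimmer on every fetal array, and Benjamini-Hochberg adjustment called 2 luminal markers as higher in adult basal cells. The number of luminal markers called was 2 without fetal replicate 2, and 3 without fetal replicate 3 or adult basal replicate 3. The sort antigen Epcam was at 12.97 ± 0.10 in the EpCAM++ fetal cells and 11.09 ± 0.19 in the adult basal cells (SD, n = 3 each), with a Holm-adjusted p of 0.026, and Itga6, which encodes CD49f, was at 15.74 ± 0.07 against 15.73 ± 0.22 (SD, n = 3 each). Every one of these basal and luminal markers was well above background on all 6 arrays.

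A probe was called when its Holm-adjusted p in limma's test, fitted over all 20448 tested probes, was at most 0.05 and its signal differed by at least 2-fold. Of the 13 tested probes of hormone receptors, 3 were called: 1 probe of Pgr and 1 of Prlr were higher in fetal cells, and the probe of Vdr was higher in adult basal cells. Over all tested probes, 11.1% were called, 5.92% as higher in fetal cells and 5.18% as higher in adult basal cells. The 3 calls are therefore described probe by probe and not as a property of the receptors as a group. Without fetal replicate 1, 2 or 3 or adult basal replicate 2 or 3, the Vdr call was the 1 that remained. Under the looser Benjamini-Hochberg adjustment at the same fold limit, 9 of the 13 passed, against 30.0% of all tested probes. For 12 of the 13 tested probes there was no overlap between the fetal and the adult basal values, which held for 69.0% of all tested probes. Of the 13, 6 had the higher mean in fetal cells and 7 in adult basal cells. The median log2 difference of all tested probes was -0.03, and the median SD between replicates was 0.12 in fetal and 0.18 in adult basal cells. For 1 probe in 3 samples against 3, the exact permutation test stops at p = 0.1, so that each call depends on the variance estimate that limma borrows from the other probes.

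**Figure D1:**
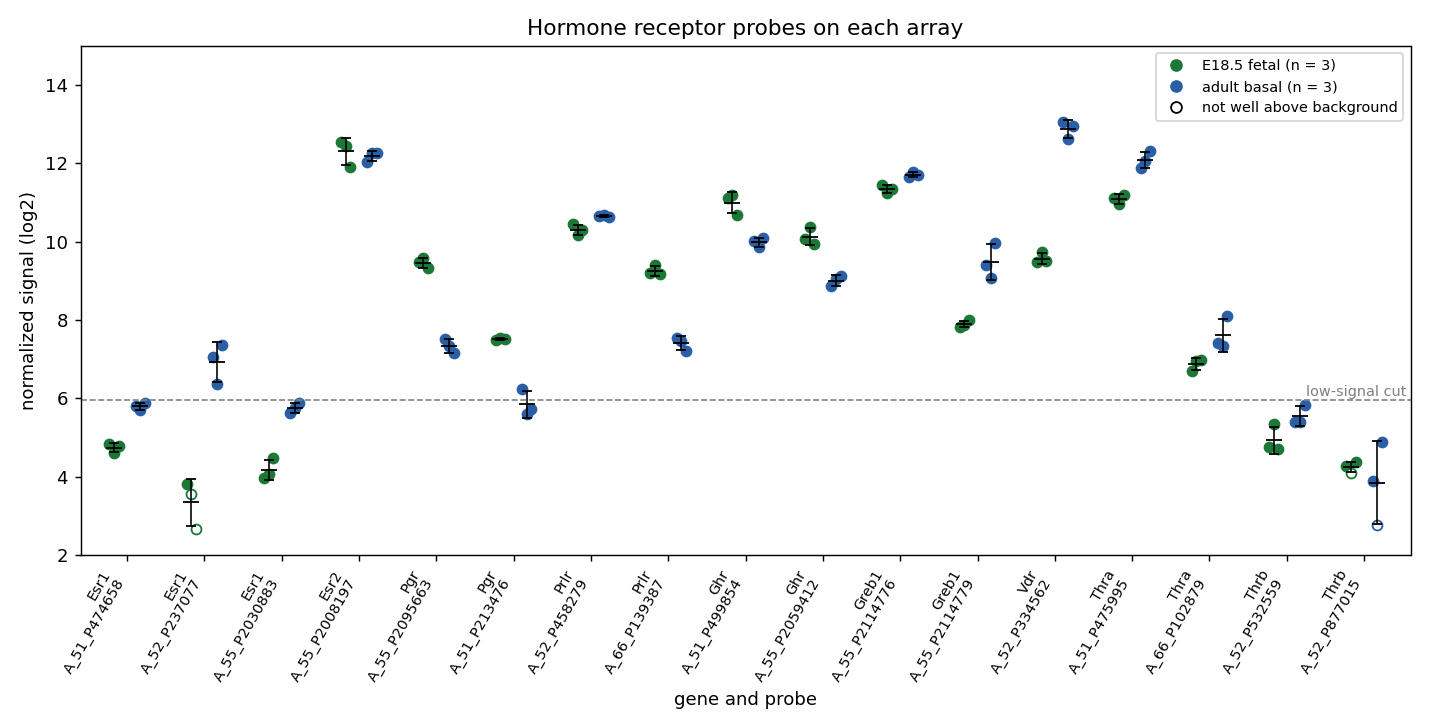
Normalized log2 signal of all 17 probes of the 9 genes on each array, with fetal arrays in green and adult basal arrays in blue (n = 3 each), open points not well above background, black bars mean ± SD, and a dashed line at the low-signal limit of 5.95. Vdr shows the widest gap between the populations, from 9.74 on the highest fetal array to 12.62 on the lowest adult basal array, while the arrays of Esr2 overlap.

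In the plot of signal on each array, levels can be compared between the populations for 1 probe but not between probes, because probes bind with different strength.

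Esr1 encodes estrogen receptor alpha, the receptor through which estrogen drives growth of the ducts. All 3 of its probes were dim, and all 3 were lower on every fetal array than on any adult basal array. The probe printed 10 times on each array, A_52_P237077, read 3.80, 3.57 and 2.67 in the fetal samples (replicates 1 to 3) and 7.07, 6.38 and 7.35 in the adult basal samples. On fetal replicate 1, 9 of its 10 spots were well above background, on the other 2 fetal arrays none was, and on the adult basal arrays all 10 were. Its log2 difference was -3.58 (SE 0.35, 95% interval -4.40 to -2.76), and the Holm-adjusted p of 0.25 missed the threshold, while the Benjamini-Hochberg-adjusted p was 8.6e-05. Within slides the difference was -3.41 on the slide with 1 fetal and 2 adult basal arrays (slide 1) and -3.25 on the slide with 2 fetal arrays and 1 adult basal array (slide 2). Its size hung on the treatment of dim signal, since it was -1.36 after a normexp background correction and -2.37 with an offset of 16 added before the log. The other probes, A_51_P474658 and A_55_P2030883, lay under the low-signal limit and were not tested there. The former read 4.84, 4.62 and 4.77 against 5.81, 5.70 and 5.88, a difference of -1.06, and the latter 3.96, 4.08 and 4.47 against 5.63, 5.74 and 5.89, a difference of -1.58. Both were well above background on all 6 arrays, and after the normexp correction their differences were -0.50 and -0.54. With every matched probe tested and no filter, limma gave a Holm-adjusted p of 1 for each of the 3 probes and the Benjamini-Hochberg-adjusted p lay between 4.4e-04 and 4.8e-04. The nearest member probe below the limit of 5.95 was A_51_P474658 (5.80 in the brighter population) and the nearest above it A_52_P237077 (6.99).

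Esr2, which encodes estrogen receptor beta, had 1 probe, A_55_P2008197, and the signal was bright in both populations. It read 12.55, 12.44 and 11.92 in the fetal samples (replicates 1 to 3) and 12.04, 12.27 and 12.26 in the adult basal samples. Fetal replicates 1 and 2 lay above all adult basal arrays and fetal replicate 3 below them, so that the groups overlapped. The difference of 0.11 (SE 0.18, 95% interval -0.31 to 0.54, Holm-adjusted p = 1) was smaller than the spread between fetal arrays, and the interval does not reach a 2-fold change. It was -0.0080 without fetal replicate 1, 0.31 without fetal replicate 3, 0.40 within slide 1 and -0.09 within slide 2. Some probes of genes that belong to the cell types removed by the sort, among them Itgam (13.92 in fetal and 13.68 in adult basal cells), Csf1r (13.18 and 13.24) and Kdr (13.45 and 13.49), were bright in both populations, whereas others, such as Ptprc (6.75 and 7.07), Cdh5 (4.83 and 7.52) and Emcn (4.19 and 5.98), were dim, and their part in the level of Esr2 was not tested.

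Pgr encodes the progesterone receptor, itself a textbook target of estrogen. Its promoter, and those of Vdr and Greb1 further on, are shown because these genes differed most clearly or stand for the estrogen response. They run from 250 bases before to 50 bases after a RefSeq transcript start (build GRCm38.p6), and capitals mark matches on either strand to 3 short motifs: the nuclear receptor half-site, AGGTCA or, from the other strand, TGACCT, the TATA box, spelled TATAAA or, from the other strand, TTTATA, and the GC box, GGGCGG or, from the other strand, CCGCCC. The Pgr promoter, on chr9:8899583-8899882 of the plus strand, holds 1 TATA match, read from the other strand, and 1 GC box.
Pgr: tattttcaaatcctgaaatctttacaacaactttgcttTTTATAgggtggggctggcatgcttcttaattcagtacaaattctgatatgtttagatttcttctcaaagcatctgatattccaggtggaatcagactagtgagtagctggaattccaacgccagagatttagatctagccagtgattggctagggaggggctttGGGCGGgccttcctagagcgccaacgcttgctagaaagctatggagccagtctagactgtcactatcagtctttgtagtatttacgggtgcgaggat
A half-site was found in 16.3%, a TATA box in 13.6% and a GC box in 35.7% of all 32851 promoters of the same length. Promoters were matched for 8 of the 9 genes at 14 starts, of which 2 held a half-site, 3 a TATA box and 4 a GC box. A match describes the letters and not a site that is used.

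On probe A_55_P2095663 Pgr read 9.49, 9.58 and 9.33 in the fetal samples (replicates 1 to 3) and 7.52, 7.33 and 7.15 in the adult basal samples. The lowest fetal array was 1.80 above the highest adult basal array. The difference was 2.13 (SE 0.13, 95% interval 1.82 to 2.44), a signal 4.39-fold higher in fetal cells, which passed in limma's test (Holm-adjusted p = 0.013). It was 2.15 within slide 1 and 2.13 within slide 2. The call was less firm than the size: the adjusted p was 0.23 without fetal replicate 1, 0.18 without fetal replicate 2, 0.094 without fetal replicate 3, 0.055 without adult basal replicate 2, 0.068 without adult basal replicate 3 and 0.081 with slide as a block, while the difference with each array left out lay between 2.04 and 2.23. The second probe, A_51_P213476, was dimmer and pointed the same way. It read 7.50, 7.55 and 7.51 against 6.23, 5.59 and 5.72, again without overlap, with a difference of 1.67 (SE 0.17, 95% interval 1.27 to 2.07) that missed the threshold (Holm-adjusted p = 0.36, Benjamini-Hochberg-adjusted p = 1.1e-04 in limma's test). It was 1.52 and 1.94 within slides 1 and 2. Adult basal replicate 1 was its highest adult basal array, and without it the difference was 1.86 and passed (Holm-adjusted p = 0.037). After the normexp correction this probe lay under the low-signal limit and its difference was 1.06.

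Greb1 is one of the genes that estrogen induces most directly, and its protein is known to bind the estrogen receptor. The promoter of its transcript start at chr12:16800837-16801136, on the minus strand, holds 1 half-site match, in capitals. Its other start in RefSeq, at chr12:16757190-16757489 on the same strand, holds no match to any of the 3 motifs.
Greb1: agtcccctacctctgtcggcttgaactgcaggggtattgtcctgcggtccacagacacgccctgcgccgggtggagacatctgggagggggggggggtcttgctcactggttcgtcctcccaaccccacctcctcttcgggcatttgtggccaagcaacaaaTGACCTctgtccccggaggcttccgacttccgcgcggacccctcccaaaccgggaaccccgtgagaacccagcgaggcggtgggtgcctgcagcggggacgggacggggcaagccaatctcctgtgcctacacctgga
Both probes of Greb1 were lower on every fetal array than on any adult basal array, and neither was called. Probe A_55_P2114776 read 11.45, 11.26 and 11.35 in the fetal samples (replicates 1 to 3) and 11.65, 11.77 and 11.71 in the adult basal samples, a difference of -0.36 (SE 0.10, 95% interval -0.60 to -0.12). Probe A_55_P2114779 read 7.83, 7.87 and 8.00 against 9.40, 9.07 and 9.98, a difference of -1.58 (SE 0.22, 95% interval -2.10 to -1.07). The latter was -1.86 within slide 1 and -1.14 within slide 2. The Holm-adjusted p was 1 for both in limma's test, and the Benjamini-Hochberg-adjusted p was 0.017 and 5.5e-04. The difference between the populations was 1.22 larger in size on the second probe than on the first, and an exact 2-sided permutation test of that gap over the 6 arrays gave p = 0.1, the smallest it can give. The mean of both probes gave -0.97. The signals of Esr1 and Greb1 were thus lower in fetal cells and that of Pgr higher, with a call for Pgr alone.

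Prlr encodes the prolactin receptor, and its probes gave opposite answers. Both probes match the same RefSeq transcript, NM_011169, and both were well above background on all 6 arrays. Probe A_66_P139387 read 9.21, 9.40 and 9.17 in the fetal samples (replicates 1 to 3) and 7.55, 7.47 and 7.22 in the adult basal samples. All fetal arrays lay above all adult basal arrays, with a difference of 1.85 (SE 0.13, 95% interval 1.55 to 2.15), or 3.60-fold, and passed in limma's test (Holm-adjusted p = 0.026). Probe A_52_P458279 read 10.44, 10.18 and 10.30 against 10.66, 10.68 and 10.63. Here all fetal arrays lay below all adult basal arrays, by a difference of -0.35 (SE 0.11, 95% interval -0.60 to -0.10) that was not called (Holm-adjusted p = 1, Benjamini-Hochberg-adjusted p = 0.023). Neither direction turned within a slide, where the first probe gave 1.82 and 1.82 and the second -0.20 and -0.44. The contrasts of these probes differed by 2.20 on the log2 scale (exact 2-sided permutation test over the 6 arrays, p = 0.1, the smallest it can give), and the mean of both probes was 0.75 higher in fetal cells (Holm-adjusted p = 1). No direction for the gene as a whole can be given from these arrays. The call of A_66_P139387 was lost without any 1 of the 6 arrays (Holm-adjusted p from 0.087 without adult basal replicate 2 to 0.36 without fetal replicate 1) and with slide as a block (0.15), while the difference stayed between 1.75 and 1.92.

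Ghr encodes the growth hormone receptor, which resembles the prolactin receptor and signals through the same kinase. Its probes, matched to the transcripts NM_010284 and NM_001048178, gave like differences. Probe A_51_P499854 read 11.11, 11.19 and 10.68 in the fetal samples (replicates 1 to 3) and 10.01, 9.86 and 10.10 in the adult basal samples. Probe A_55_P2059412 read 10.08, 10.37 and 9.94 against 8.86, 9.05 and 9.12. Fetal replicate 3 was the lowest fetal array on both, and it still lay above every adult basal array. The differences were 1.01 (SE 0.16, 95% interval 0.64 to 1.37) and 1.12 (SE 0.14, 95% interval 0.79 to 1.45), with a Holm-adjusted p of 1 for both and Benjamini-Hochberg-adjusted p of 9.5e-04 and 3.3e-04 in limma's test. Within slides 1 and 2 they were 1.06 and 1.08 for the first probe and 1.09 and 1.11 for the second. The 2 contrasts differed by 0.12 in size (exact 2-sided permutation test, p = 0.5).

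Vdr encodes the vitamin D receptor, and its probe had the smallest adjusted p among the receptors. Its promoter, at chr15:97908247-97908546 on the minus strand, holds 3 GC boxes and no half-site or TATA match.
Vdr: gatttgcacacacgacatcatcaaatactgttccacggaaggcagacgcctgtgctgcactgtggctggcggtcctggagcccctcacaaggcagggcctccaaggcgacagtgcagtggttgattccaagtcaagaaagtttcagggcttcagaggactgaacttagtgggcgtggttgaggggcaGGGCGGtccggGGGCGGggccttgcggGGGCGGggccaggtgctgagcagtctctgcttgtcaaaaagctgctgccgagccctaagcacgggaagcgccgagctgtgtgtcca
The only Vdr probe, A_52_P334562, read 9.48, 9.74 and 9.50 in the fetal samples (replicates 1 to 3) and 13.07, 12.62 and 12.96 in the adult basal samples. The lowest adult basal array lay 2.89 above the highest fetal array. The difference was -3.31 (SE 0.15, 95% interval -3.66 to -2.96), a signal 9.93-fold higher in adult basal cells, called by limma's test (Holm-adjusted p = 0.0013). It was -3.54 within slide 1 and -3.00 within slide 2. Of the 17 alternatives run for this probe, all 17 kept the call, with differences from -3.44 to -3.21 and Holm-adjusted p of at most 0.031. The 8 fibroblast markers had a summed log2 signal of 12.61, 12.65 and 12.95 in the fetal samples and 14.14, 14.43 and 14.81 in the adult basal samples, and so moved in the direction of Vdr. In that list 2 genes were called, the matrix gene Dcn (-3.78) and the receptor gene Pdgfrb (-4.34), both higher in adult basal cells, and the number called was 1 without fetal replicate 1. Of the genes not called, Col1a1 was at 10.15 in fetal and 10.16 in adult basal cells, with overlap. Pdgfra differed by -0.37 and the others by -0.89 to -1.62. The brightest probe of the list was that of the collagen gene Col1a2 in fetal cells (11.43, against 12.32 in adult basal cells) and that of Dcn in adult basal cells (13.38, against 9.61 in fetal cells), and every gene of the list was well above background on all 6 arrays. The summed log2 signal of the basal markers also moved in the direction of Vdr, by -3.54. The adult basal sort was set to leave out BP-1+ stromal cells and to keep EpCAM+ cells, and the fetal sort had no BP-1 step. Whether cells other than basal cells had a part in the Vdr signal was not tested.

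Thra and Thrb encode the thyroid hormone receptors alpha and beta. Thra probe A_51_P475995 read 11.13, 10.95 and 11.19 in the fetal samples (replicates 1 to 3) and 11.89, 12.07 and 12.31 in the adult basal samples, a difference of -1.00 (SE 0.14, 95% interval -1.32 to -0.68). Probe A_66_P102879 read 6.70, 6.95 and 6.98 against 7.41, 7.33 and 8.10, a difference of -0.74 (SE 0.21, 95% interval -1.24 to -0.24). Both were lower on every fetal array than on any adult basal array. Neither was called (Holm-adjusted p = 1 for both, Benjamini-Hochberg-adjusted p = 5.1e-04 and 0.018 in limma's test), and within slides 1 and 2 they gave -0.97 and -1.00, and -1.06 and -0.37. The Thrb probes were dim. A_52_P532559 read 4.75, 5.34 and 4.70 against 5.40, 5.40 and 5.84, a difference of -0.62 that was -0.15 after the normexp correction. A_52_P877015 read 4.28, 4.10 and 4.37 against 3.88, 2.78 and 4.89, with overlap, and was well above background on 2 arrays of each population. Its difference of 0.40 was -0.13 without adult basal replicate 2 and 0.92 without adult basal replicate 3. With no filter the intervals were -1.16 to -0.08 and -0.83 to 1.63 (Holm-adjusted p = 1 for both in limma's test), so that for Thrb neither a 2-fold difference nor its absence can be read from these arrays.

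**Figure D2:**
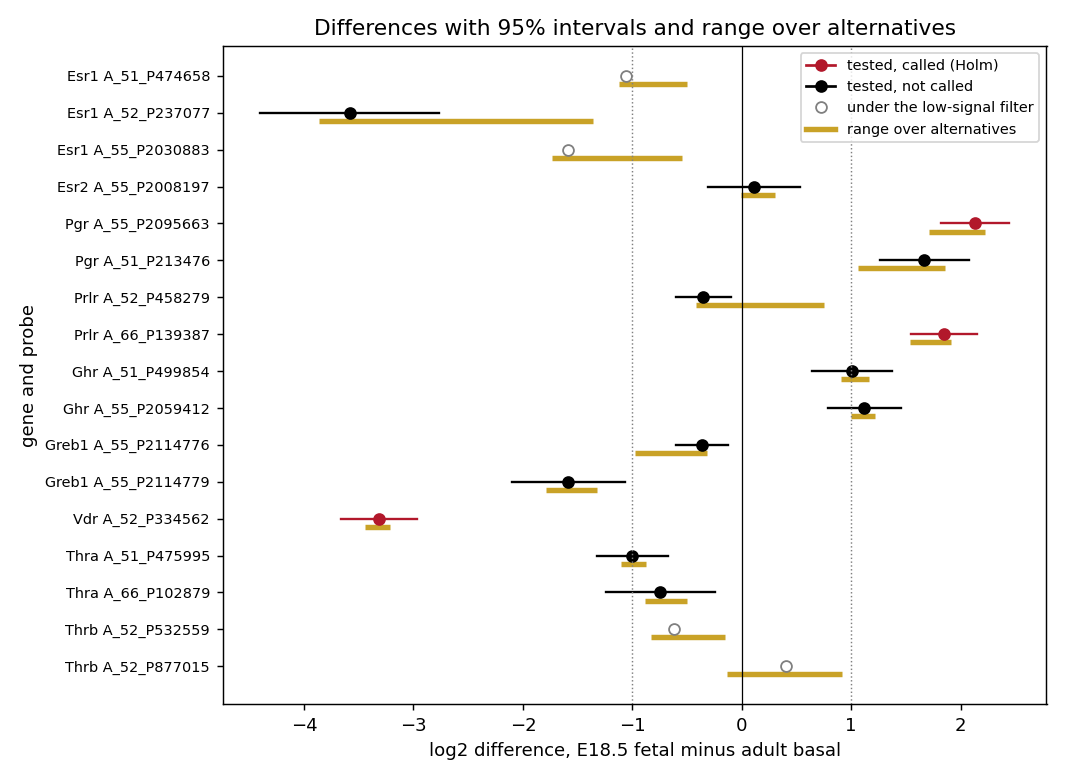
Log2 difference (E18.5 fetal minus adult basal, n = 3 arrays each) of the 17 probes with the 95% interval of limma's fit for tested probes, called probes in red, probes under the low-signal limit as open points, and a yellow bar for the range over the alternative settings; dotted lines mark a 2-fold difference. Vdr, from -3.44 to -3.21, has a short yellow bar and Esr1 A_52_P237077, from -3.86 to -1.36, the longest.

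In the plot of differences, the 2 red points to the right are the Pgr and Prlr probes, and the yellow bar of the second Prlr probe runs far across 0, because the mean of both probes takes the other sign. The bars of Esr2 and of 1 Thrb probe also cross 0. Esr2 is the only tested member probe whose 95% interval holds 0.

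Next, 6 lists of genes were read from the same fit, with 1 probe for each gene (the brightest tested). Of the 6, 1 held genes of hormone-sensing luminal cells and the others held partners and targets of these receptors. Together the lists held 81 genes, of which 80 were on the array and 71 were tested. Of these, 13 were called, 8 as higher in fetal and 5 as higher in adult basal cells, which is 18.3%. The hormone-sensing luminal list gave 6 of the 13 from 12 tested genes, and each other list gave 1 or 2. The share is therefore read list by list. Without any 1 fetal array, calls were left in 2 lists only, all as higher in fetal cells: 3 hormone-sensing luminal genes and 1 gene of prolactin and growth hormone signalling. Over all 15734 genes read this way, 11.2% were called, 6.03% as higher in fetal cells and 5.21% as higher in adult basal cells. The median log2 difference was -0.03 over the 71 genes and -0.04 over all genes.

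Among partners of the steroid receptors, 1 of 12 tested genes was called. It was Pgrmc2, a membrane-associated progesterone receptor component, with -1.56 (Holm-adjusted p = 0.043), and its call was lost without any 1 of the 6 arrays. The median of the list was 0.03. With Benjamini-Hochberg adjustment 4 genes of the list were called, 2 in each direction, and those higher in fetal cells were the steroid-metabolizing enzyme gene Hsd17b7 (2.45) and the co-chaperone gene Fkbp5 (1.04).

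Of the 12 tested genes of hormone-sensing luminal cells, 5 were called as higher in fetal cells and 1 as higher in adult basal cells, and the median difference was 2.30. Foxa1, the pioneer factor that opens chromatin for the estrogen receptor, read 12.80 ± 0.22 in fetal against 6.33 ± 0.80 in adult basal cells (SD, n = 3 each), a difference of 6.46 (SE 0.37, Holm-adjusted p = 0.0073). The cell cycle gene Ccnd1 (6.59), the oxidoreductase gene Ptgr1 (4.99), the transcription factor Myb (4.44) and the surface gene Prom1 (2.30) were the others. Ly6a, which encodes Sca-1, was higher in adult basal cells (-3.54, Holm-adjusted p = 0.043), a call that was lost without any 1 fetal array, without adult basal replicate 1 or 3 and with slide or replicate as a block. Of the genes not called, Cited1 (2.84), Tbx3 (1.13) and Wnt4 (0.98) were brighter on every fetal array and Xbp1 (-1.70) was dimmer on every fetal array. Gata3, a luminal transcription factor, was at 13.58 ± 0.19 against 13.43 ± 0.17 (SD, n = 3 each), a difference of 0.15 (95% interval -0.18 to 0.48). Areg, the amphiregulin gene through which estrogen acts on neighbouring cells, was at 8.78 ± 0.53 against 6.47 ± 0.94 (SD, n = 3 each), and its difference of 2.30 was not called (Holm-adjusted p = 1). Tnfsf11, the RANKL gene that progesterone induces, was not well above background on any of the 6 arrays. The number of calls in this list was 3 without any 1 fetal array and 5 with slide as a block. All 10 proliferation genes were also higher in fetal cells (median 5.90), with a summed log2 signal of 16.92, 17.00 and 16.98 in the fetal samples and 13.65, 13.60 and 13.66 in the adult basal samples, led by Pcna. Of these calls 4, 5 and 6 were left without fetal replicates 1, 2 and 3, and 6 without adult basal replicate 3. Their part in Ccnd1 and Myb was not tested.

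**Figure D3:**
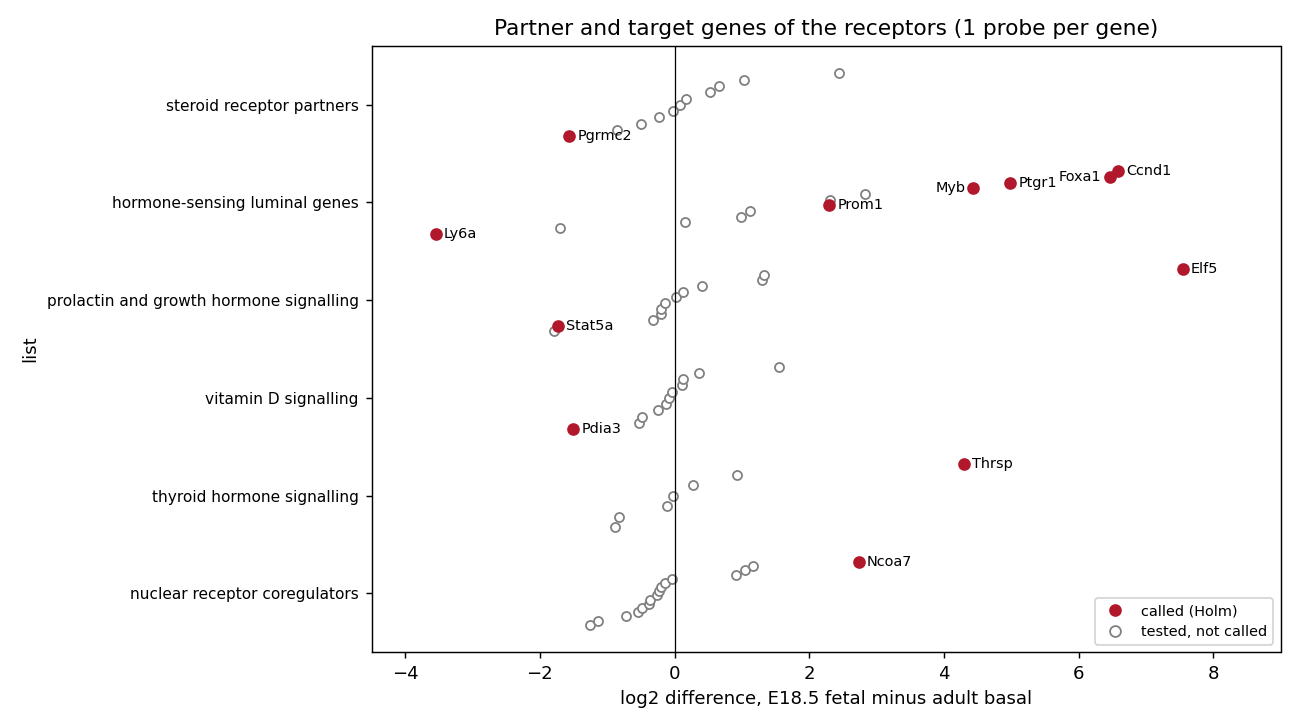
Log2 difference (E18.5 fetal minus adult basal, n = 3 arrays each) of tested genes reported from 6 lists, 1 point for each gene, called genes in red with their names. The lists hold receptor partners and targets and, in 1 list, genes of hormone-sensing luminal cells. Elf5, at 7.55, and the luminal genes Ccnd1, Foxa1, Ptgr1 and Myb lie far to the right, and the luminal gene Ly6a, at -3.54, lies farthest to the left.

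Below the prolactin and growth hormone receptors, 2 of 12 genes were called, in opposite directions. Elf5, a transcription factor that prolactin induces in alveolar cells, was higher in fetal cells by 7.55 (SE 0.16), and Stat5a, the transcription factor that JAK2 activates, was higher in adult basal cells by 1.73 on the log2 scale (difference -1.73, Holm-adjusted p = 0.047 in limma's test). Jak2 itself was at 12.34 ± 0.17 against 12.21 ± 0.10 (SD, n = 3 each). The list's median was -0.06. Without adult basal replicate 2 there were 3 calls, and without any other single array 1. Benjamini-Hochberg adjustment called 5 genes of the list, 3 as higher in fetal and 2 as higher in adult basal cells. Besides Elf5 and Stat5a these were Cish (1.324) and Socs2 (1.304), brighter on every fetal array, and Tnfrsf11a (-1.79), dimmer on every fetal array.

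Around Vdr, 1 of 11 tested genes was called, Pdia3 (-1.51, Holm-adjusted p = 0.049), a disulfide isomerase that also binds vitamin D at the membrane, and it was lost without any 1 of the 6 arrays. Cyp24a1, the vitamin D-degrading enzyme and the best known target of the receptor, was at 6.47 ± 0.11 in fetal against 6.35 ± 0.29 in adult basal cells (SD, n = 3 each), a difference of 0.12 (95% interval -0.25 to 0.50). Rxra, the partner with which the receptor binds DNA, was at 9.16 ± 0.06 against 9.28 ± 0.18 (SD, n = 3 each). The list's median was -0.08.

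In the thyroid hormone list, 2 of 8 tested genes were called. Thrsp, a gene of fat synthesis that thyroid hormone induces, was higher in fetal cells by 4.30 (SE 0.25, Holm-adjusted p = 0.0092), with adult basal signal well above background on 1 of 3 arrays. Limma with Holm adjustment called no gene of this list without any 1 fetal array or without adult basal replicate 1, and 1 gene without adult basal replicate 3. Of 16 coactivators and corepressors of nuclear receptors, Ncoa7 alone was called (2.74, Holm-adjusted p = 0.025), not without any 1 fetal array or adult basal replicate 3, and the list's median was -0.24.

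**Figure D4:**
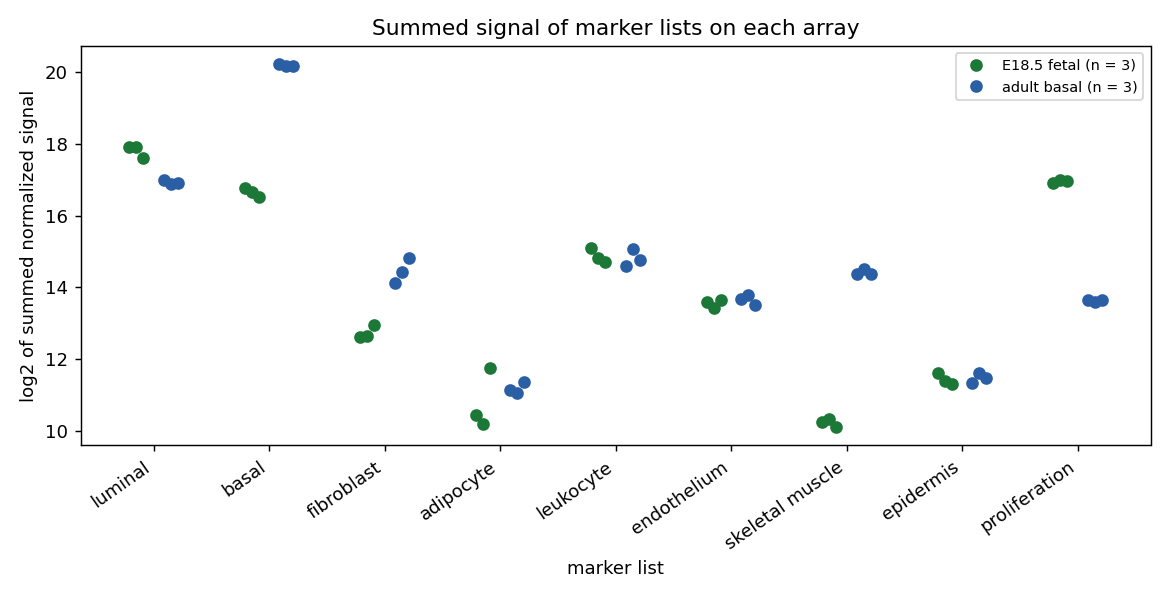
Log2 of the summed normalized signal of 9 marker lists on each array, fetal in green and adult basal in blue (n = 3 each). Basal, fibroblast and skeletal muscle lists are higher on all adult basal arrays, luminal and proliferation lists on all fetal arrays, and the other 4 lists overlap.

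The plot of marker lists shows which other transcripts moved with the receptors. The luminal list summed to 17.91, 17.93 and 17.62 in the fetal samples and 17.00, 16.88 and 16.91 in the adult basal samples, led by Krt18, and the basal list to 16.79, 16.67 and 16.52 against 20.23, 20.19 and 20.19, led by Acta2. The skeletal muscle list summed to between 10.09 and 10.33 on the fetal and between 14.36 and 14.51 on the adult basal arrays, and its only called gene, the actin gene Acta1 (-4.68), also had its brightest probe, while the muscle myosin gene Myh8 was at 4.87 and 5.98. Of the 7 tested leukocyte markers and 6 tested endothelial markers none was called by limma with Holm adjustment, whereas Benjamini-Hochberg adjustment called 1 and 4 of them, all as higher in adult basal cells, the direction of Vdr. The 4 were Cdh5 (-2.70), Emcn (-1.79), Vwf (-1.56) and Cldn5 (-1.40), each dimmer on every fetal array than on any adult basal array, and the median of the endothelial list was -1.48. The leukocyte gene was Coro1a (-1.50). Ptprc (CD45) was at 6.75 ± 0.48 against 7.07 ± 0.22 (SD, n = 3 each), and Pecam1 (CD31) at 9.10 ± 0.04 against 9.25 ± 0.17 (SD, n = 3 each). Of 5 tested epidermal markers Krt10 alone was called, as higher in fetal cells (1.47, Holm-adjusted p = 0.022 in limma's test), a call lost without any 1 array. Benjamini-Hochberg adjustment called 4. Of these, Krt10, Krtdap (4.11, well above background on 2 of 3 adult basal arrays) and Krt1 (1.95) were higher in fetal cells and Sbsn (-1.51) in adult basal cells. Lor (0.87) was also brighter on every fetal array, and the median of the epidermal list was 1.47. Of 7 adipocyte markers none was called, although their sum was 11.76 on fetal replicate 3 and 10.44 and 10.19 on the other fetal arrays. The part of these cell types in the receptor differences was not tested.

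Genes with the most similar pattern were found by the root mean square distance between centred log2 values over the 6 arrays, among 15251 genes well above background on all of them. For Vdr they were Itga7 (distance 0.10), Mocos (0.13) and Serping1 (0.13), and for Pgr they were Ezr (0.046), Tmem198b (0.055) and Cracr2b (0.063). Ghr was followed most closely by Usp6nl (0.074), Tmem131l (0.091) and Chml (0.097), and Thra by Arl5a (0.031), Kif6 (0.045) and Sec23ip (0.046). The neighbours of the brighter Prlr probe were 1810064F22Rik (0.033), P2ry2 (0.033) and Fbxo39 (0.038), those of Greb1 were Olfr1505 (0.034), Ppfibp1 (0.036) and Gast (0.037), and those of Esr2 were Usp17lc (0.034), Arid4a (0.064) and Fbxl12os (0.076). For the brightest probes of Esr1 and Thrb, both dim, they were AI837181 (0.023), Crtc3 (0.052) and Rnf44 (0.056), and E4f1 (0.11), Shc4 (0.12) and 1700029J07Rik (0.12). With 6 arrays in 2 groups, a small distance mostly means a like difference between the groups.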

How the data were processed

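The 6 samples, 3 of each population, were grouped and numbered as their labels state. Nothing beyond the words biological replicate says how samples of a group were separated, so that p-values measure the spread between these samples. The authors deposited spot intensity from Agilent Feature Extraction 11.0.1.1, background-subtracted within each array and not normalized between arrays, and a table of log2 values that the authors quantile normalized in GeneSpring. The genome build of the probe annotation differs from that of the gene table, so that no gene coordinates are given and only promoter coordinates carry the table's build, GRCm38.p6. The authors' own table of comparisons was not used. All value columns belonged to a sample (0 unmapped).

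Control and outlier spots (104 to 326 on an array) were left out, the log2 of the processed signal was averaged over spots of a probe, and the 6 arrays were quantile normalized. Of 55681 probes, 27235 matched a RefSeq gene by accession without its version, and current symbols are used. Probes in the lowest of 3 k-means clusters (100 starts, seed 1) in both populations were removed, which left 20448 above a limit of 5.95. The functions lmFit and eBayes (limma 3.58.1, R 4.3.3) gave each difference and its p, which Holm's method adjusted. The study also used a k-means filter, lmFit and Holm's method, but its methods name no restriction to probes matched to a gene. Tables and plots were made in Python 3.11.15 with pandas 2.3.3, numpy 2.4.6 and matplotlib 3.10.9. Slides came from the array headers, with fetal replicate 1 and adult basal replicates 1 and 3 on slide 1.

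The precision is limited by the number of arrays, 3 for each population. No spot was saturated, and the share of probes well above background ran from 76.4% to 83.3%. On simulated data with 20440 probes, the fit recovered 53% of 100 probes changed by 2 log2 units and 93% of 100 changed by 4, and called 0 unchanged probes. The simulated noise was independent and normal, with the same SD in both populations and no slide effect. It therefore cannot show how often such effects, or dim signal, lead to a call. Each deposited log2 column followed its own array most closely (r from 0.998 to 0.999 across probes).

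The lists were 6 of receptor partners, targets and hormone-sensing luminal genes, and 9 of cell type markers and proliferation genes. They and the 9 genes were chosen with earlier results of these data known. Named were all probes of the 9 genes, up to 4 called genes of each list with the largest differences, a few direct partners whatever their value (Rxra, Stat5a, Jak2, Foxa1, Gata3, Areg, Tnfsf11 and Cyp24a1), the sort antigens and the 3 genes with the most similar pattern. A few items that this rule takes are not reported here. Other genes named with a list were added after their values were seen. The alternatives were scaling to the 75th percentile, the deposited log2 values, a normexp correction (offset 50) of the median spot intensity, testing without the low-signal filter, keeping instead probes well above background in a population, testing unmatched probes too, Benjamini-Hochberg adjustment, a variance trend with robust estimation, an offset of 16, each array left out, a replicate block, a slide block and averaging the probes of a gene.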

Additional observations from a re-analysis of the deposited data

How the results depend on the processing

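Vdr kept its call under all 17 alternatives. Over all probes 2270 were called, and the count was 1182 with no low-signal filter, 6133 with Benjamini-Hochberg adjustment, 1302 with the replicate block and 952 to 2014 with each array left out. The number of receptor probes called, 3 as reported, was 1 with no filter, with the replicate block and with the slide block, 9 with Benjamini-Hochberg adjustment and 1 to 3 with an array left out, the 3 without adult basal replicate 1 being those of Vdr and both Pgr probes. Pgr A_55_P2095663 missed the threshold with no filter (difference 2.13, adjusted p = 0.098), the replicate block (2.13, 0.061) and the slide block (2.14, 0.081), and was 2.04 to 2.23 with an array left out. Prlr A_66_P139387 missed it with no filter (1.85, 0.18), all probes (1.85, 0.064), the replicate block (1.85, 0.15) and the slide block (1.82, 0.15), and was 1.75 to 1.92 with an array left out. Benjamini-Hochberg adjustment called, at the same differences, Esr1 A_52_P237077 (-3.58), Pgr A_51_P213476 (1.67, and 1.54 to 1.86 with an array left out), Ghr A_51_P499854 (1.01) and A_55_P2059412 (1.12), Greb1 A_55_P2114779 (-1.58) and Thra A_51_P475995 (-1.00). The sign turned for Esr2 with an array left out (-0.0080 to 0.31) for the Prlr probe A_52_P458279 as the mean of both probes (0.75), and for the untested Thrb A_52_P877015 without adult basal replicate 2 (-0.13) and with normexp (-0.047). The cause was not tested. The labels do not say whether replicate numbers pair the samples. Deviations from the group means correlated at -0.03, 0.09 and 0.05 for same-numbered arrays and at -0.13 to 0.12 for differently numbered ones. With 3 arrays in a group these values cannot show whether samples were paired. The share of calls higher in fetal cells lay between 51.0% and 55.4% under the alternatives run. Dim signal limits Esr1 and Thrb.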
